A study of Rattus norvegicus with 23 samples.

Results

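The S100 proteins, most of which bind calcium, and the annexins that partner with them were followed in microglia isolated from newborn rat brains after inflammation, hypoxia-ischemia (HI) or both. The list, chosen by name, comprised 10 genes: S100a8, S100a9, S100a11, S100a4, S100a6, S100a10, S100a1, S100a13, Anxa1 and Anxa2. Of these, 9 were among the 20301 genes of the log2 table, and S100a13 was not analysed here. S100a8 and S100a9, the neutrophil-type members of the list, were set against the other 7 genes.

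S100 proteins are small dimeric proteins, most of which bind calcium and then dock onto other proteins. S100A10 is an exception that does not bind calcium and holds annexin A2 without it. S100A8 and S100A9 pair to form calprotectin, a major protein of the neutrophil cytosol that also chelates zinc and manganese and, once released, acts on TLR4 and RAGE. S100A10 and S100A11 bind the tails of annexin A2 and annexin A1, respectively, and the annexins themselves bind membrane phospholipids when calcium is present. Annexin A1 is also secreted and limits leukocyte recruitment through formyl peptide receptors, while the complex of annexin A2 with S100A10 sits on the cell surface and assembles plasminogen with its activators.

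All pups were Wistar rats of both sexes operated on postnatal day 7, and cells were enriched with CD11b/c magnetic beads 24 h later. Sham pups (n = 6) had a neck incision under isoflurane, and no injection is listed for them. LPS pups (n = 5) received 0.1 mg/kg Escherichia coli lipopolysaccharide intraperitoneally 4 h before the sham operation. NaCl/HI samples (n = 6) came from pups given 0.9% NaCl, ligation of the left common carotid artery and 50 min of hypoxia in 8% oxygen. LPS/HI samples (n = 6) came from pups given LPS before the same ligation and hypoxia. Each Sham or LPS sample was the entire brain of 1 pup, whereas each HI sample pooled the ipsilateral hemispheres of 2 pups. The effects of HI, of the tissue taken and of pooling thus cannot be told apart, nor can LPS and the injection itself when LPS pups are compared with Sham pups. When NaCl/HI is compared with Sham, the NaCl injection is a further difference.

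Values are log2 values (regularised logarithm, corrected by the authors for 3 surrogate variables), so that a difference of 1 is a 2-fold difference. The transformation draws weakly expressed genes toward their mean, which makes differences of such genes too small. Counts and depth were not used here, so the precision of a value could be judged only from the spread between samples. The median gene of a library lay between 7.75 and 7.82. The 11 microglia markers, among them P2ry12, Tmem119, Cx3cr1 and Csf1r, averaged 13.40 to 13.78 in every library. The label of the cells thus matched most of their defining markers, although Olfml3, at 6.89 to 7.59, lay below the median gene. Markers of other cells were present in all libraries. Their means were 11.76 to 12.67 for border-associated macrophages, 10.80 to 11.36 for endothelium, 10.40 to 11.16 for astrocytes and 10.34 to 11.16 for choroid plexus and ependyma. Neutrophil, fibroblast and mural cell genes had values as well, which are given beside the results they moved with. In such bulk samples, fewer cells of a type and less RNA per cell cannot be told apart.

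Over all libraries, LPS/HI was the condition in which the most listed genes were called higher than in Sham (limma over all genes, Benjamini-Hochberg adjusted p below 0.05). Of the 9 genes, 6 rose and none fell, against 5.30% of all genes called higher and 3.48% called lower. The 6 were S100a8, S100a9, S100a6, S100a10, Anxa1 and Anxa2, and the adjusted p of the other 3 lay between 0.0527 and 0.0721. Only S100a8 and S100a9 also exceeded a 2-fold difference, a combination met by 0.0936% of all genes. The median difference of the 9 genes was 0.58, while that of all genes was near 0. S100a8, S100a9 and S100a11 belong to the markers the study picked on these same samples, so their direction is not independent evidence. Leaving out Sham replicate 1 or Sham replicate 6 lowered the count from 6 to 3, and leaving out Sham replicate 5 or LPS/HI replicate 4 lowered it to 2, S100a9 and Anxa1 being called in each of these fits. The share of all genes called higher fell as well, to 3.41%, 3.12%, 3.48% and 3.30% in this order. Robust variances gave 4 calls, without S100a8 and S100a6, and 19 residual degrees of freedom gave 9.

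Fewer of the 9 genes were called for LPS or HI given alone than for LPS/HI against Sham. For NaCl/HI the share of all genes called higher was smaller as well, at 0.00985% against 5.30% for LPS/HI. For LPS that share was larger, at 10.2%, so the count of listed genes did not follow it. For S100a10, Anxa2, S100a11, S100a6 and S100a4 the pooled differences from Sham were 0.39 to 0.74 in NaCl/HI and 0.40 to 0.80 in LPS/HI, and LPS/HI exceeded NaCl/HI by 0.01 to 0.07. The library names run in 2 series. LPS/HI minus NaCl/HI was -0.36 to -0.16 in libraries 1 to 12 and 0.21 to 0.50 in libraries 13 to 23 (limma, adjusted p from 0.514 to 0.953). The pooled values thus average opposite signs. In libraries 1 to 12 alone, NaCl/HI against Sham called S100a11, S100a4, S100a6, S100a10 and Anxa2 (0.832% of all genes called higher). LPS/HI against Sham called only S100a9 and Anxa1 there (1.06% of all genes called higher). LPS raised S100a1 alone among the 9 genes, against 10.2% of all genes called higher and 7.56% called lower than in Sham, with a median difference of 0.13 for the listed genes and -0.01 for all genes. NaCl/HI against Sham gave no call in limma, where 0.00985% of all genes were called higher and 0% lower. In that comparison, 5 listed genes had an unadjusted p below 0.05, the median difference was 0.39 against -0.01 for all genes, and the exact Wilcoxon test adjusted over all genes likewise called 0. LPS/HI against LPS raised Anxa1 (1.22% of all genes higher, 0.719% lower). LPS/HI against NaCl/HI gave no call in limma (0.153% of all genes higher, 0.0493% lower), with 4 listed genes at an unadjusted p below 0.05 and 0 in the exact Wilcoxon test adjusted over all genes. LPS against NaCl/HI also called 0 of the 9 (5.32% of all genes higher, 3.66% lower), again with 4 at an unadjusted p below 0.05 and 0 in that Wilcoxon test. There S100a10 gave -0.32 (limma, adjusted p = 0.0849), Anxa2 -0.32 (limma, adjusted p = 0.179) and S100a11 -0.44 (limma, adjusted p = 0.188). The comparisons with Sham share the Sham samples, so their values are given side by side and were not correlated.

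**Figure D1:**
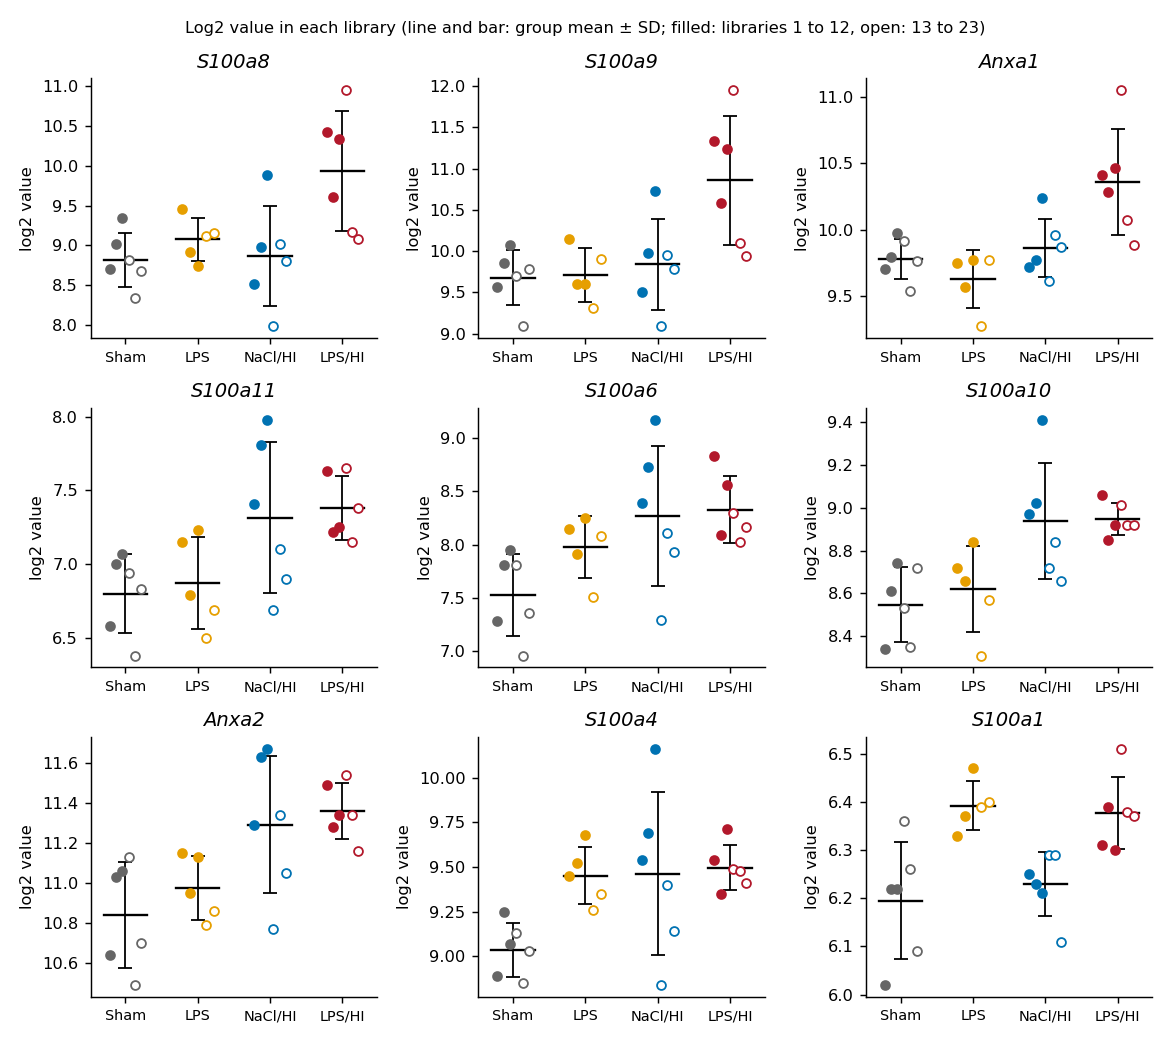
Log2 value (vertical axis) of the 9 genes in each library of the 4 groups, with the group mean and SD. S100a8, S100a9 and Anxa1 (top row) stood highest in LPS/HI, whereas S100a11, S100a6, S100a10 and Anxa2 reached similar means in NaCl/HI and LPS/HI over all libraries.

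Calprotectin genes had their highest means in LPS/HI, and their difference passed against Sham but not against LPS or NaCl/HI. For S100a8, Sham samples ran from 8.34 to 9.34 (median 8.76) and NaCl/HI samples from 7.98 to 9.88 (median 8.89). The 5 LPS samples were at 9.46, 8.91, 8.74, 9.12 and 9.15, and LPS/HI samples ran from 9.08 to 10.95 (median 9.98). All 6 LPS/HI samples lay above the Sham mean and 4 lay above every Sham sample, while LPS/HI replicates 5 and 6 fell within the Sham range. S100a8 rose by 1.11 ± 0.30 (SE) against Sham (limma, adjusted p = 0.0262). The differences were 0.26 for LPS (limma, adjusted p = 0.618) and 0.04 for NaCl/HI (limma, adjusted p = 0.964). LPS/HI exceeded LPS by 0.86 ± 0.31 (limma, adjusted p = 0.163) and NaCl/HI by 1.07 ± 0.30 (limma, adjusted p = 0.135). The latter passed in the exact Wilcoxon test adjusted over the 6 pairs of groups alone (adjusted p = 0.0455). It also passed with array weights (0.81, limma, adjusted p = 0.0178), in a fit that stopped before it converged. The call against Sham was lost when Sham replicate 5 or 6 or LPS/HI replicate 3 or 4 was left out (limma, adjusted p between 0.0532 and 0.0632). It was also lost with robust variances (limma, adjusted p = 0.0522) and in the exact Wilcoxon test adjusted over all genes (adjusted p = 0.0612).

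S100a9 had the largest difference of the 9 genes. Sham samples lay between 9.09 and 10.07 (median 9.75) and NaCl/HI samples between 9.09 and 10.73 (median 9.87). LPS samples were at 10.15, 9.60, 9.60, 9.31 and 9.91, and LPS/HI samples lay between 9.94 and 11.95 (median 10.92). Of the 6 LPS/HI samples, 5 exceeded every Sham sample and only replicate 6 did not. S100a9 rose by 1.18 ± 0.29 against Sham (limma, adjusted p = 0.0193), and this call was kept whichever library was left out (limma, highest adjusted p 0.0467). The difference was 0.03 for LPS and 0.16 for NaCl/HI. LPS/HI exceeded LPS by 1.15 ± 0.31 (limma, adjusted p = 0.0544) and NaCl/HI by 1.02 ± 0.29 (limma, adjusted p = 0.157), and neither passed. The former passed without NaCl/HI replicate 3, NaCl/HI replicate 4 or LPS/HI replicate 6 (limma, adjusted p from 0.034 to 0.0469). It also passed in 4 of 12 other settings. These were the library block (limma, adjusted p = 0.0457), 19 residual degrees of freedom (limma, adjusted p = 0.0227), the lowest 25% of genes left out (limma, adjusted p = 0.0495) and array weights. With array weights both differences passed (limma, adjusted p = 0.00684 and 0.0172), in the fit that stopped before it converged.

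Anxa1, which encodes a glucocorticoid-induced brake on neutrophil recruitment and is itself abundant in neutrophils, had its highest values in the same group as the calprotectin genes. Its Sham values ranged from 9.54 to 9.97 (median 9.77) and its NaCl/HI values from 9.61 to 10.24 (median 9.82). In LPS they were 9.75, 9.57, 9.77, 9.27 and 9.77, and in LPS/HI they ranged from 9.88 to 11.05 (median 10.34). LPS/HI samples all lay above LPS, as did those of S100a10 and Anxa2, a separation seen for 2.32% of all genes in that direction. Against Sham, 5 of the 6 LPS/HI samples lay above the whole group. Anxa1 rose in LPS/HI by 0.58 ± 0.15 against Sham (limma, adjusted p = 0.0211) and by 0.73 ± 0.15 against LPS (limma, adjusted p = 0.0189). The call against Sham was lost in the exact Wilcoxon test adjusted over all genes (adjusted p = 0.0612). The call against LPS was lost in that test (exact, adjusted p = 0.104), in a fit of only the 2 groups compared (limma, adjusted p = 0.0585), and without LPS replicate 2 or LPS replicate 4 (limma, adjusted p = 0.0536 and 0.0856). LPS alone gave -0.15 and NaCl/HI 0.08 against Sham, and LPS/HI exceeded NaCl/HI by 0.50 ± 0.15 (limma, adjusted p = 0.169).

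Whether the LPS effect depended on HI was tested as an interaction, for which 0.365% of all genes were called higher and 0.719% lower. Because only the Sham pups had no injection listed, the interaction also holds any effect of the injection itself. None of the 9 genes passed in limma, and 2 of them, Anxa1 and S100a9, had an unadjusted p below 0.05. The interaction was 0.65 ± 0.21 for Anxa1 (limma, adjusted p = 0.140), 0.99 ± 0.43 for S100a9 (limma, adjusted p = 0.270) and 0.81 ± 0.43 for S100a8 (limma, adjusted p = 0.388). For S100a11, S100a10, Anxa2 and S100a1 it lay between -0.06 and -0.01, and for S100a4 and S100a6 it was -0.38 and -0.39. The 2 series of libraries, 1 to 12 and 13 to 23, gave unlike values for several of these genes, a difference that was not tested. S100a11 gave -0.53 and 0.62 (limma, adjusted p = 0.373 and 0.494), S100a10 -0.37 and 0.30, and Anxa2 -0.32 and 0.24, in this order. S100a4 gave -0.74 and 0.03 (limma, adjusted p = 0.145 and 0.985) and S100a6 -0.69 and -0.03. The interaction was 0.99 and 0.62 for S100a8, 1.04 and 0.98 for S100a9 and 0.60 and 0.74 for Anxa1, and none of the 9 genes passed in either series. So the larger values of S100a8, S100a9 and Anxa1 in LPS/HI were not shown to exceed the sum of the separate LPS and HI differences.

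**Figure D2:**
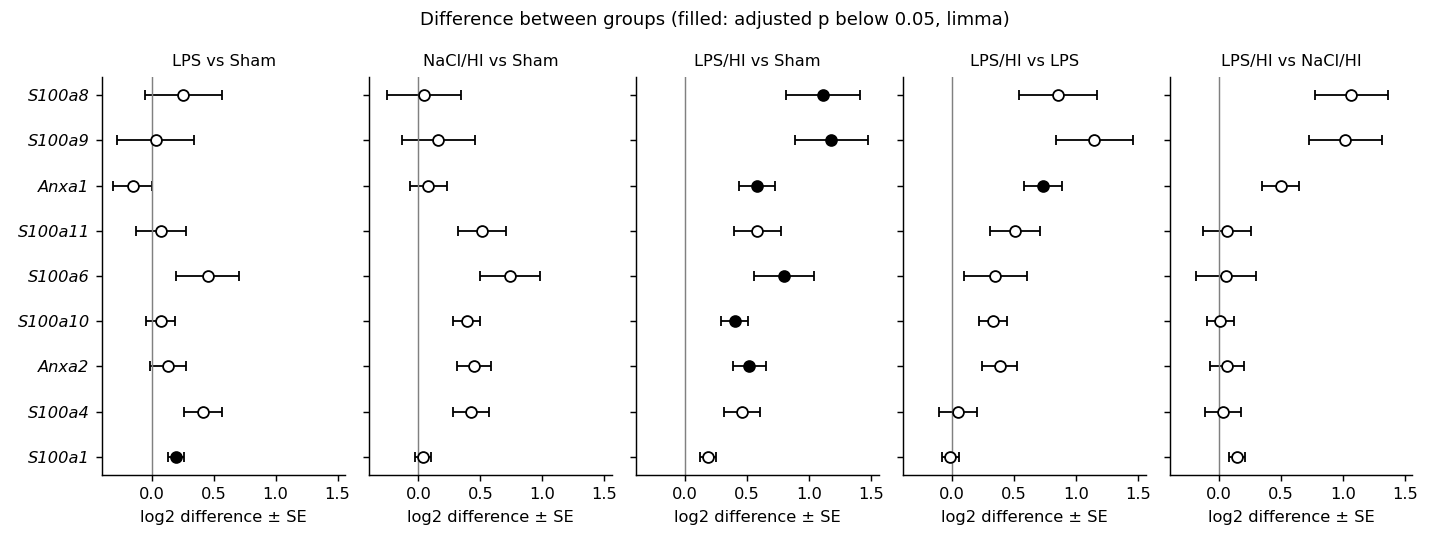
Log2 difference ± SE (horizontal axis) of the 9 genes in 5 comparisons, from 1 limma fit of all genes and 23 samples, with adjusted p below 0.05 filled. The filled points are S100a1 for LPS against Sham, 6 genes for LPS/HI against Sham and Anxa1 for LPS/HI against LPS.

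The mean of the neutrophil markers moved with S100a8, S100a9 and Anxa1. Of 18 neutrophil markers, 6 were called higher and none lower in LPS/HI against Sham. Of all genes, 5.30% were called higher and 3.48% lower there. Among the 6 were Mmp8, Mmp9, Olfm4 and Il1r2, and the study names some of these as markers from the same samples. The difference was positive for 16 of the 18 and negative for Ngp (-0.58) and Ltf (-0.16), neither of them called. In LPS against Sham, Ngp (-1.07, limma, adjusted p = 0.00261) and Camp (-0.71, limma, adjusted p = 0.0442) were called lower and 1 marker higher. S100a8 and S100a9 did not fall in LPS (0.26 and 0.03). The mean of the 18 markers lay between 5.35 and 5.74 in Sham, 5.19 and 5.66 in LPS, 5.27 and 5.69 in NaCl/HI, and 5.60 and 6.37 in LPS/HI. The azurophil granule genes Elane and Ctsg were near the floor of the scale in every library, at most 0.44 and -0.08, while Csf3r, which microglia also express, was between 11.56 and 12.07. The LPS/HI samples with the lowest S100a8 and S100a9, replicates 5 and 6, also had the lowest neutrophil means of their group, 5.60 and 5.67, and replicate 4 had the highest of each. The part of neutrophils in these differences was not tested.

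Deviations from the group means, which leave the group differences out, were compared for 5 pairs, 3 of them of known partner proteins and 2 with the neutrophil mean (permutation test within groups, two-sided, 23 samples). S100a8 followed S100a9 with Pearson r = 0.96 (permutation test, p = 1e-05, which is the lowest possible with 100000 permutations, adjusted p = 2e-05) and Spearman rho = 0.94 (permutation test, adjusted p = 3e-05). Without the 2 samples farthest from the median r was 0.94, and it was 0.99 within libraries 1 to 12 and 0.96 within libraries 13 to 23. The mean of the neutrophil markers followed S100a9 with r = 0.95 and rho = 0.97 and S100a8 with r = 0.88 and rho = 0.89 (permutation test, adjusted p = 2e-05 for each r and 3e-05 for each rho). Without the 2 farthest samples these r values were 0.93 and 0.87. They were 0.89 and 0.88 within libraries 1 to 12 and 0.97 and 0.90 within libraries 13 to 23. Thus the calprotectin genes varied together with the mean of the neutrophil markers among samples of the same group as well. As a description with no test, the same deviations of Anxa1 correlated with the neutrophil mean at r = 0.89, with S100a9 at 0.91 and with S100a8 at 0.83.

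**Figure D3:**
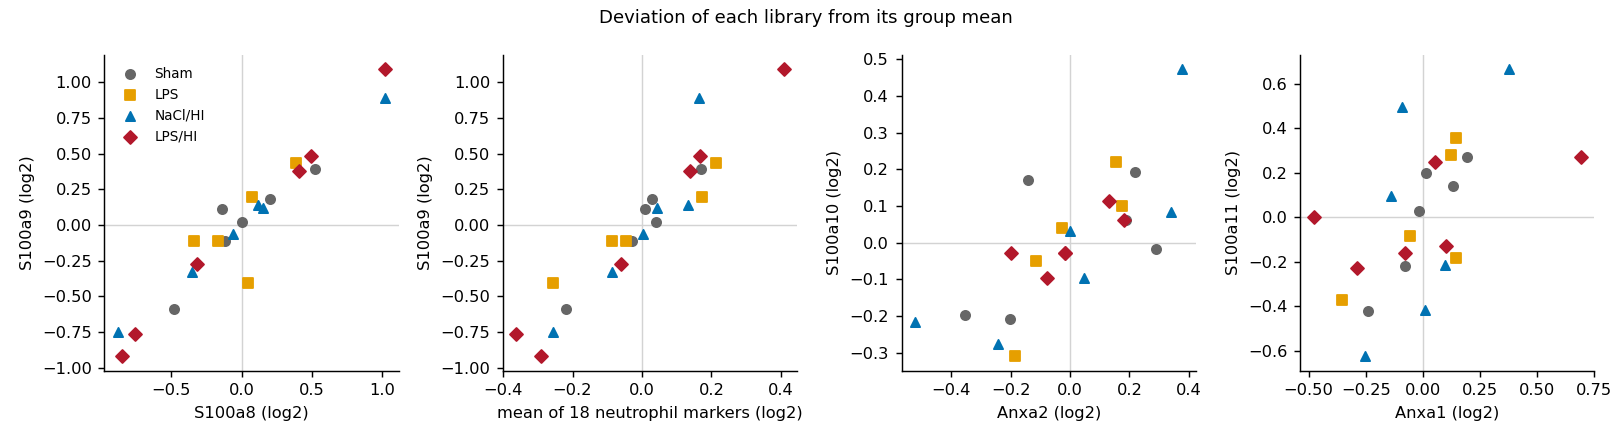
Deviation of each library from its group mean on the log2 scale for 4 pairs, with 1 point per library and symbols for the 4 groups. The points lie close to a line for S100a8 with S100a9 (r = 0.96) and for S100a9 with the mean of 18 neutrophil markers (r = 0.95), and scatter more for Anxa2 with S100a10 (r = 0.74) and Anxa1 with S100a11 (r = 0.55).

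The upstream sequences of S100a9 and Anxa1 are shown because these genes moved together. That of Anxa2 is shown because its pooled mean, unlike theirs, was similar in both HI groups. Anxa2 rose in LPS/HI against Sham as well, and its deviations correlated with those of S100a9 at r = 0.68. Each is the 250 bases before the RefSeq start of the gene, 5′ to 3′ along the gene, and 7 of the 10 listed genes had an entry. Capitals mark matches on either strand to the C/EBP motif TTGCNNAA, the AP-1 motif TGANTCA, the PU.1/ETS core GAGGAA and the HIF core ACGTG, all of them motifs of factors active in myeloid cells or in hypoxia. The GRCr8 build used for the sequences differs from the mRatBN7.2 build of the files.
S100a9 (chr2:178490623-178490872 of GRCr8, minus strand): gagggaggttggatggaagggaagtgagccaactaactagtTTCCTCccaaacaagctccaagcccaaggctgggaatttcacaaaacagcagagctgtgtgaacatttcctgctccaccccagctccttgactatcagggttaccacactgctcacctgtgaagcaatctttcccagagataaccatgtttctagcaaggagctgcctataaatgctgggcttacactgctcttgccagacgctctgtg
Anxa1 (chr1:227303733-227303982 of GRCr8, minus strand): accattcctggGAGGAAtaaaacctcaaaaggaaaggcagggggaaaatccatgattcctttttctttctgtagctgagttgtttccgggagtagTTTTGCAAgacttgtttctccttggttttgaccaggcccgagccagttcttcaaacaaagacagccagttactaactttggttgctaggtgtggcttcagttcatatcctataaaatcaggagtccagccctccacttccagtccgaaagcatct
Anxa2 (chr8:78986002-78986251 of GRCr8, plus strand): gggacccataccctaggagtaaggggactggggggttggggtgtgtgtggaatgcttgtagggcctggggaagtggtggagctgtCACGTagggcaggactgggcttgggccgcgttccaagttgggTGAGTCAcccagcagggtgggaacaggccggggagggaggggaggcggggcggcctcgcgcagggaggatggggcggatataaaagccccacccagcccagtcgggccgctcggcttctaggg
S100a9 and Anxa1 each held a PU.1/ETS core, at position -209 as TTCCTC and at position -239 as GAGGAA, counted from the start. Such a core occurred in 23.3% of 33469 promoter windows of this length. Anxa1 also held the C/EBP motif at -155 (9.22% of windows). Anxa2 held the AP-1 motif at -123 (6.34% of windows) and a HIF core on the other strand at -165 (16.6% of windows). The windows of S100a11, S100a4, S100a6 and S100a13, not printed, held no match to these motifs. The matches of Anxa2 were thus not shared by S100a11, S100a4 and S100a6, which varied with it. No match overlapped another, and a match is a description of letters and does not show binding. On the same build, S100a8 and S100a9 are neighbours on chromosome 2, and so are S100a11 and S100a10, while Anxa1 is on chromosome 1 and Anxa2 on chromosome 8.

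S100a10 and Anxa2, the subunits of the plasminogen-binding surface complex, had similar means in both HI groups over all libraries. Between the library series their difference changed sign, and it did not pass in either. LPS/HI minus NaCl/HI was -0.19 for S100a10 and -0.16 for Anxa2 in libraries 1 to 12 and 0.21 and 0.30 in libraries 13 to 23 (limma, adjusted p from 0.649 to 0.941). S100a10 lay between 8.34 and 8.74 in Sham (median 8.57) and at 8.72, 8.66, 8.84, 8.31 and 8.57 in LPS. It lay between 8.66 and 9.41 in NaCl/HI (median 8.91) and between 8.85 and 9.06 in LPS/HI (median 8.92). All LPS/HI samples were above all Sham and all LPS samples. S100a10 rose by 0.40 ± 0.11 in LPS/HI against Sham (limma, adjusted p = 0.0271), a call lost without Sham replicate 1 or 5 or LPS/HI replicate 4 or 5 (limma, adjusted p from 0.0531 to 0.0633). NaCl/HI gave 0.39 ± 0.11 (limma, adjusted p = 0.152). LPS gave 0.07, and LPS/HI exceeded LPS by 0.33 (limma, adjusted p = 0.140) and NaCl/HI by 0.01.

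Anxa2 ranged from 10.49 to 11.13 in Sham (median 10.87) and from 10.77 to 11.67 in NaCl/HI (median 11.32). It was 11.15, 10.95, 11.13, 10.79 and 10.86 in LPS and ranged from 11.16 to 11.54 in LPS/HI (median 11.34). LPS/HI again lay wholly above Sham and LPS, although the gap to the highest LPS sample was only 0.01. Anxa2 rose by 0.52 ± 0.14 in LPS/HI against Sham (limma, adjusted p = 0.0240), a call lost without Sham replicate 1, 5 or 6 or LPS/HI replicate 4 (limma, adjusted p from 0.0522 to 0.0583). In NaCl/HI the difference was 0.45 ± 0.14 (limma, adjusted p = 0.169), and in LPS it was 0.13. Within groups, S100a10 and Anxa2 were correlated (r = 0.74, rho = 0.75, permutation test, adjusted p = 0.00136 and 0.000637), with r = 0.71 without the 2 farthest samples. This held within libraries 1 to 12 (r = 0.80, permutation test, adjusted p = 0.0262) and not within libraries 13 to 23 (r = 0.39, permutation test, adjusted p = 0.396).

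S100a11 encodes a partner of annexin A1. Sham samples were between 6.38 and 7.07 (median 6.88), and LPS samples at 7.15, 6.79, 7.23, 6.50 and 6.69. NaCl/HI samples were between 6.69 and 7.98 (median 7.25) and LPS/HI samples between 7.15 and 7.65 (median 7.32). LPS/HI did not overlap with Sham, yet the difference of 0.58 ± 0.19 missed the threshold (limma, adjusted p = 0.0600). It passed in 6 of 12 other settings, among them the library block (limma, adjusted p = 0.0339). The difference from Sham was 0.51 ± 0.19 for NaCl/HI (limma, adjusted p = 0.230) and 0.07 for LPS. In libraries 1 to 12 the NaCl/HI and LPS/HI differences from Sham were 0.85 and 0.48, and in libraries 13 to 23 they were 0.18 and 0.68. Deviations of S100a11 and Anxa1 were correlated (r = 0.55, rho = 0.57, permutation test, adjusted p = 0.00227 and 0.00632), and r was 0.44 without the 2 farthest samples. It was 0.71 within libraries 1 to 12 and 0.73 within libraries 13 to 23 (permutation test, adjusted p = 0.0341 and 0.023).

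S100a6, or calcyclin, binds calcyclin-binding protein and is expressed in many dividing cells. It ranged from 6.96 to 7.95 in Sham (median 7.58), from 7.29 to 9.17 in NaCl/HI (median 8.25) and from 8.02 to 8.83 in LPS/HI (median 8.23), with LPS samples at 8.15, 7.91, 8.25, 7.51 and 8.08. Every LPS/HI sample exceeded every Sham sample. S100a6 rose by 0.80 ± 0.24 in LPS/HI (limma, adjusted p = 0.0430), a call kept without any 1 of 10 libraries and lost without any 1 of the other 13 (limma, adjusted p up to 0.104). It was also lost with robust variances (limma, adjusted p = 0.0749) and with no variance trend (limma, adjusted p = 0.0577). The differences were 0.74 ± 0.24 for NaCl/HI (limma, adjusted p = 0.193) and 0.45 ± 0.25 for LPS (limma, adjusted p = 0.231).

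S100a4, which binds non-muscle myosin and is known for its part in cell motility, had like means in all 3 treated groups when the libraries were pooled. Sham samples lay between 8.85 and 9.25 (median 9.05), and LPS samples at 9.45, 9.52, 9.68, 9.26 and 9.35, just above them. NaCl/HI samples spread from 8.84 to 10.16 (median 9.47) and LPS/HI samples from 9.35 to 9.71 (median 9.49). S100a4 was the only one of the 9 genes whose LPS samples all exceeded the Sham samples, which 8.05% of all genes did. Still, neither LPS (0.41 ± 0.15, limma, adjusted p = 0.0650) nor LPS/HI (0.46 ± 0.15, limma, adjusted p = 0.0527) passed. NaCl/HI gave 0.43 ± 0.15 (limma, adjusted p = 0.204). In libraries 1 to 12 the differences from Sham were 0.48 for LPS, 0.73 for NaCl/HI and 0.46 for LPS/HI, and in libraries 13 to 23 they were 0.30, 0.13 and 0.46. The LPS difference passed without NaCl/HI replicate 3 (limma, adjusted p = 0.0202) or replicate 4 (limma, adjusted p = 0.0280), which changes only the estimated spread. Of 12 other settings, 6 called the LPS difference and 8 the LPS/HI difference. For LPS these included the library block (limma, adjusted p = 0.0498) and only the 2 groups compared (limma, adjusted p = 0.00531). With array weights the LPS/HI difference was 0.29, in a fit that stopped before it converged.

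In all, 5 of the 9 genes separated LPS/HI from Sham without overlap, against 3.85% of all genes in that direction. These were S100a11, S100a4, S100a6, S100a10 and Anxa2, whereas S100a8, S100a9 and Anxa1 overlapped with Sham. The overlap of these 3 came from LPS/HI replicate 6 and, for S100a8, also from replicate 5. S100a1 overlapped with Sham as well.

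S100a1, best known from muscle and from neurons, where it binds calcium-handling proteins, was called higher in LPS than in Sham, and in no other comparison. Its Sham values were 6.02 to 6.36 (median 6.22) and its NaCl/HI values 6.11 to 6.29 (median 6.24). LPS samples were at 6.33, 6.37, 6.47, 6.39 and 6.40, and LPS/HI samples ran from 6.30 to 6.51 (median 6.37). Both LPS-treated groups lay wholly above NaCl/HI, as 4.79% of all genes did for LPS and 0.901% for LPS/HI. LPS raised S100a1 by 0.20 ± 0.07 against Sham (limma, adjusted p = 0.0442). LPS/HI gave 0.18 ± 0.06 (limma, adjusted p = 0.0721), NaCl/HI 0.04, and the differences from NaCl/HI were 0.16 for LPS (limma, adjusted p = 0.144) and 0.15 for LPS/HI (limma, adjusted p = 0.404). The LPS call was kept without Sham replicate 4, NaCl/HI replicate 3, 4 or 6, or LPS/HI replicate 1 or 4, and was lost without any 1 of the other 17 libraries (limma, adjusted p up to 0.104). The call was also lost with only the 2 groups compared (limma, adjusted p = 0.0852) and with the replicate block (limma, adjusted p = 0.0999). The SD of S100a1 within a group was at most 0.12. Like S100a1, the mean of 8 astrocyte markers was higher in both LPS-treated groups than in the others, at 10.70 in Sham, 10.93 in LPS, 10.79 in NaCl/HI and 10.94 in LPS/HI. Of the 8, 3 were called higher in LPS against Sham and 3 against NaCl/HI, when 10.2% and 5.32% of all genes were. The deviations of S100a1 correlated with the astrocyte mean at r = 0.52, less than those of S100a11, S100a6, S100a10, Anxa2 and S100a4 (0.55 to 0.67). For S100a1, r was 0.39 with the endothelium mean, -0.40 with the neuron mean and -0.44 with the oligodendrocyte lineage mean. The other marker means gave -0.33 to 0.22. Of 11 microglia markers, 5 were called lower and 1 higher in LPS against Sham, when 7.56% of all genes were called lower and 10.2% higher. The part of these cell types in the S100a1 values was not tested.

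The SD was largest in NaCl/HI for S100a11, S100a4, S100a6, S100a10 and Anxa2. For S100a8, S100a9 and Anxa1 it was largest in LPS/HI, at 0.75, 0.79 and 0.40, against 0.63, 0.55 and 0.22 in NaCl/HI. The SD of S100a4 was 0.46 in NaCl/HI and 0.12 to 0.16 in the other groups, and that of S100a6 was 0.66 against 0.29 to 0.39. NaCl/HI replicate 3 was the highest of its group for all genes but S100a1, and replicate 4 the lowest for all but S100a1 and S100a10. Without replicate 4, S100a4, S100a6, S100a10 and Anxa2 were called higher in NaCl/HI than in Sham (limma, adjusted p from 0.0255 to 0.0420), when 1.90% of all genes were. No other left-out library gave a call in this comparison. Both library series had members of every group, and each was fitted alone. In libraries 1 to 12, NaCl/HI exceeded Sham by 0.85 for S100a11, 0.73 for S100a4, 1.09 for S100a6, 0.57 for S100a10 and 0.62 for Anxa2 (limma, adjusted p from 0.0305 to 0.0447, with 0.832% of all genes called higher). In libraries 13 to 23, the same differences were 0.18, 0.13, 0.40, 0.21 and 0.28 (limma, adjusted p from 0.901 to 0.903, with 0% of all genes called higher). The difference between the series was not tested, and the meaning of the library numbers is not given in the sources used here.

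LPS/HI differed less between the series. Against Sham, S100a8 gave 1.10 and 1.12, S100a9 1.22 and 1.13, Anxa1 0.56 and 0.59, and Anxa2 0.46 and 0.58 in the first and second series. S100a11 gave 0.48 and 0.68, S100a4 0.46 and 0.46, S100a6 0.81 and 0.78, S100a10 0.38 and 0.42, and S100a1 0.18 in each. With 3 samples per group in a series, apart from LPS with 2 in the second, S100a9 and Anxa1 passed in the first (limma, adjusted p = 0.0473 and 0.0412) and none in the second (limma, adjusted p from 0.173 to 0.366). Of all genes, 1.06% were called higher in the first and 0% in the second, so the lack of calls there is not particular to these genes. Against NaCl/HI, by contrast, S100a11, S100a4, S100a6, S100a10 and Anxa2 had negative LPS/HI differences in the first series, from -0.36 to -0.16, and positive ones in the second, from 0.21 to 0.50. None of these differences passed (limma, adjusted p from 0.514 to 0.953).

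**Figure D4:**
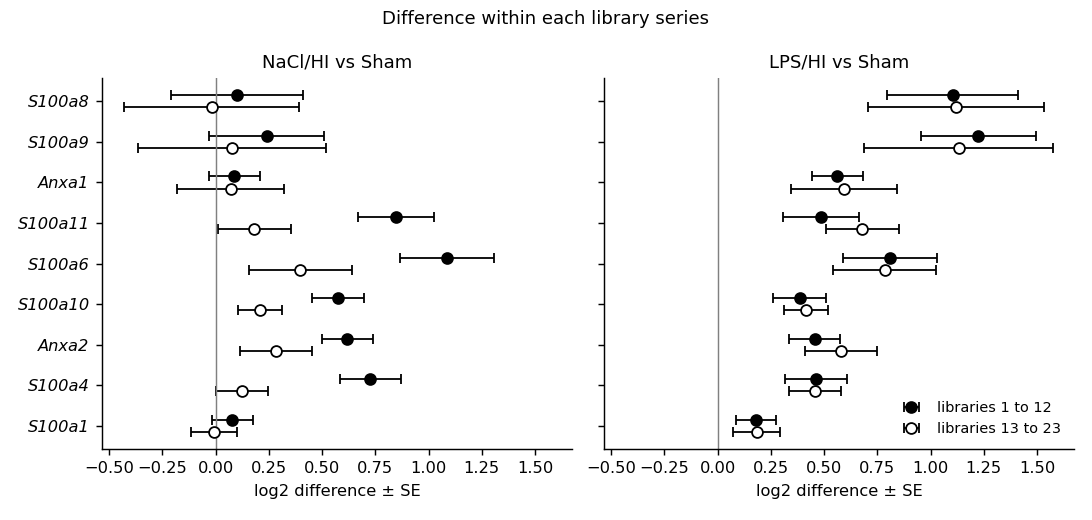
Log2 difference ± SE (horizontal axis) from Sham of the 9 genes in NaCl/HI and LPS/HI, fitted within libraries 1 to 12 (filled) and within libraries 13 to 23 (open). For S100a11, S100a6, S100a10, Anxa2 and S100a4, NaCl/HI lay far from 0 in the first series and nearer to it in the second, while LPS/HI gave 0.38 to 0.81 in the first and 0.42 to 0.78 in the second.

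Within groups, the genes fell into sets that varied together, which are described here with no test. S100a11, S100a6, S100a10, Anxa2 and S100a4 correlated at r between 0.74 and 0.90 with each other. Each of them correlated at 0.46 to 0.69 with S100a8, S100a9 and Anxa1. S100a1 reached at most 0.25 with any of the other 8. All points share libraries and the correction for surrogate variables, which could shape such correlations.

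**Figure D5:**
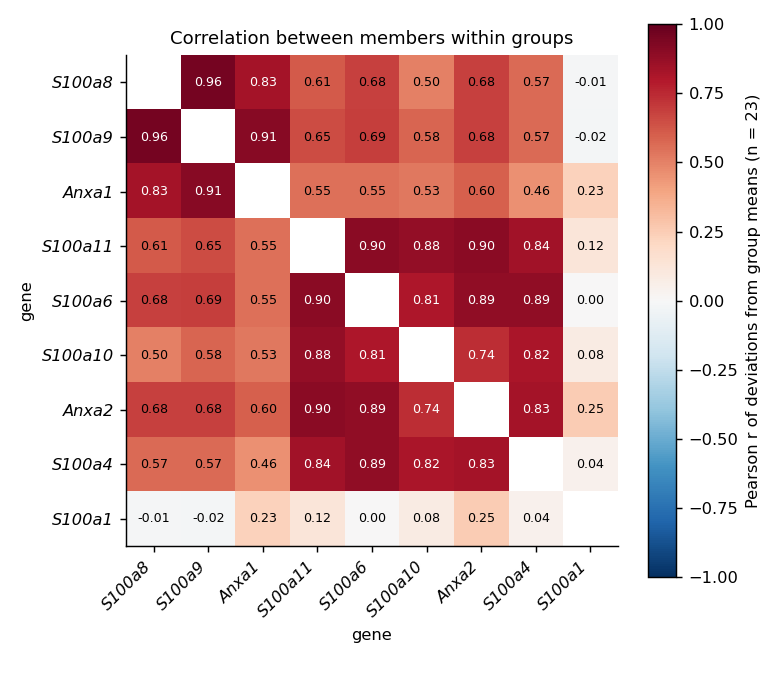
Pearson r between the 9 genes (both axes) over deviations of the 23 libraries from their group means, on a colour scale from -1 to 1. A block of S100a8, S100a9 and Anxa1 and a block of S100a11, S100a6, S100a10, Anxa2 and S100a4 stand out, and S100a1 stays near 0.

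Markers of several other cell types moved with the second set. Deviations of S100a11, S100a6, S100a10, Anxa2 and S100a4 correlated at 0.58 to 0.81 with the mean of 7 mural cell markers and at 0.57 to 0.77 with that of 7 monocyte markers. With the mean of 8 astrocyte markers r was 0.55 to 0.67, and with that of 5 fibroblast markers it was 0.65 for S100a10 and 0.31 to 0.49 for the other 4. The neutrophil mean, which moved with S100a8, S100a9 and Anxa1, also gave r of 0.44 (S100a4) to 0.65 (S100a6) with the same 5 genes. The mean of 3 choroid plexus and ependyma markers gave 0.34 to 0.53, and that of 6 border-associated macrophage markers gave -0.64 to -0.42. T and NK cell markers gave 0.27 to 0.47, and the microglia, endothelium, oligodendrocyte lineage and neuron means lay between -0.28 and 0.22. The mean of the mural cell markers was 9.25 to 9.51 in Sham, 9.25 to 9.51 in LPS, 9.36 to 9.67 in NaCl/HI and 9.50 to 9.76 in LPS/HI. The mean of 5 fibroblast markers was 8.96 to 9.30 in Sham, 8.91 to 9.30 in LPS, 9.15 to 9.50 in NaCl/HI and 9.34 to 9.51 in LPS/HI, where 4 of the 5 were called higher than in Sham. Of the mural cell markers 2 of 7 and of the monocyte markers 2 of 7 were called higher in LPS/HI than in Sham. These counts and that of the fibroblast markers are to be read against 5.30% of all genes called higher there. The monocyte mean was 9.94 to 10.31 in Sham, 10.25 to 10.47 in LPS, 10.19 to 10.70 in NaCl/HI and 10.08 to 10.76 in LPS/HI. The part of these cells in the values of S100a11, S100a6, S100a10, Anxa2 and S100a4 was not tested.

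The genes most like 4 of the listed genes over all 23 samples were found by Pearson r, group differences included. For S100a8 they included S100a9 (0.96), Padi4 (0.91), Ceacam4 (0.87) and Trem1 (0.87). For S100a9 they included Padi4 (0.97), S100a8 (0.96), Anxa1 (0.94) and Mmp8 (0.91). Padi4, which citrullinates histones in neutrophils, and Mmp8, the neutrophil collagenase, were both in the neutrophil list. For S100a11 they were Itgb7 (0.95), Mgst1 (0.95), Anxa2 (0.94), Chi3l1 (0.93) and Cd44 (0.93), and for Anxa2 they were Ifitm1 (0.95), Cd44 (0.95), S100a11 (0.94), Plp2 (0.94) and Slpi (0.93). Cd44, the hyaluronan receptor, was thus near both S100a11 and Anxa2.

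Other genes of the pathway were tested in the same fit. Counts called higher are to be read against 10.2% of all genes in LPS against Sham, 5.30% in LPS/HI against Sham and 5.32% in LPS against NaCl/HI. Of 6 other S100 genes in the table, S100b, the astrocyte S100 protein, rose in LPS/HI against Sham (0.39 ± 0.12, limma, adjusted p = 0.0487), and 1 of 8 astrocyte markers rose in the same comparison. Of 10 other annexins, LPS raised Anxa3 by 0.38 ± 0.06 (limma, adjusted p = 0.000299) and Anxa6 by 0.29 ± 0.07 (limma, adjusted p = 0.00396) against Sham. LPS/HI raised Anxa7 by 0.10 ± 0.03 (limma, adjusted p = 0.0488). In LPS against NaCl/HI, Anxa5 (-0.55, limma, adjusted p = 0.00359) and Anxa4 (-0.53, limma, adjusted p = 0.0470) were lower and Anxa3 higher (0.32, limma, adjusted p = 0.00284), as was 1 more annexin. Anxa4 averaged 9.45 in NaCl/HI, 8.92 in LPS and 8.74 in Sham.

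Among 6 measured receptors of extracellular S100 proteins, Cd14, the co-receptor of TLR4, rose by 0.48 ± 0.15 in LPS (limma, adjusted p = 0.0332) and by 0.58 ± 0.14 in LPS/HI (limma, adjusted p = 0.0184) against Sham. Bsg, which encodes basigin, a receptor of S100A9, rose by 0.20 in each (limma, adjusted p = 0.0196 and 0.0295), and by 0.22 in LPS against NaCl/HI (limma, adjusted p = 0.0189). The other 4 receptors were not called in either comparison. Of 3 measured formyl peptide receptors, Fpr2, the receptor of annexin A1, rose by 0.53 ± 0.14 in LPS/HI against LPS (limma, adjusted p = 0.0488), the comparison in which Anxa1 also rose. Fpr1 fell by 0.29 in LPS against Sham (limma, adjusted p = 0.0417). Both receptors are also known from neutrophils.

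Of 13 intracellular and surface partners, the plasminogen activator Plat fell in LPS against Sham (-0.23, limma, adjusted p = 0.0461) and rose in LPS/HI against LPS (0.30, limma, adjusted p = 0.0476). Plat was the only one called for the interaction (0.53 ± 0.11, limma, adjusted p = 0.0270). Plaur, the urokinase receptor, and Plau, urokinase, were lower in LPS than in NaCl/HI by -0.75 (limma, adjusted p = 0.0253) and -0.45 (limma, adjusted p = 0.0148). The other 10 partners were not called in any of the 7 comparisons. Of 6 transcription factors of myeloid S100 genes, LPS raised Cebpb by 0.57 ± 0.11 (limma, adjusted p = 0.00109) and Spi1, which encodes PU.1, by 0.18 ± 0.05 (limma, adjusted p = 0.0112) against Sham. Both were also higher in LPS than in NaCl/HI, Cebpb by 0.58 (limma, adjusted p = 0.00168) and Spi1 by 0.17 (limma, adjusted p = 0.0236). In LPS/HI against Sham, the comparison in which S100a8 and S100a9 were called, only Stat3 of the 6 was called higher (0.16 ± 0.05, limma, adjusted p = 0.0491). All 6 differences were positive there. Those of Cebpd (0.37), Cebpb (0.29) and Cebpe (0.25) were larger than that of Stat3 but were not called (limma, adjusted p from 0.0761 to 0.129).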

How the data were processed

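RNA of CD11b/c-enriched cells was sequenced from 23 samples in 4 groups. The authors checked reads with FastQC 0.11.9 and MultiQC 1.14, mapped them to the mRatBN7.2 transcripts with kallisto 0.48.0, and used tximport and DESeq2 to obtain gene counts. They dropped genes with fewer than 10 counts over all samples, summed duplicate symbols, took rlog values and regressed out 3 surrogate variables (sva, limma). The deposited values are log2 values of 20301 genes, from -1.35 to 23.4. Depth is unknown, and no count test was run. No column was left unmapped to a sample.

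From these values, limma 3.58.1 in R 4.3.3 fitted all 23 samples with a variance trend. Because of the correction, 16 residual degrees of freedom were used in place of 19, since the removed variables left 16 dimensions. P-values were two-sided and adjusted by Benjamini-Hochberg over all genes of each of 7 comparisons, and genes below 0.05 were called. Removal of the variables with the groups kept can make p-values too low. The fit was also run on simulated data with known changes, and the outcome is not reported here. Correlations used deviations from group means and 100000 permutations within groups, in Python 3.11.15 with numpy 2.4.6, pandas 2.3.3 and scipy 1.17.1. Figures were drawn with matplotlib 3.10.9. Promoters were from RefSeq (GRCr8).

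The listed genes were named in every comparison. Of 6 other pathway lists, called genes were named, at most 3 per list and comparison by size. The 5 genes most like S100a8, S100a9, S100a11 and Anxa2 were named, apart from results not reported here, and 12 marker lists were kept as counts and means. The genes and lists were chosen with earlier results of these data known. Replicates are separate samples by their labels. Alternatives were other degrees of freedom, no trend, robust variances, only the 2 groups compared, replicate and library blocks, the lowest 25% of genes left out, median centring, quantile normalization, array weights, the exact Wilcoxon rank-sum test and leaving out each library.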

Additional observations from a re-analysis of the deposited data

How the results depend on the processing

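Each choice was changed alone, except that the Wilcoxon test over 6 pairs changed both the test and the adjustment. Over the 63 combinations of gene and comparison, 2178 recomputed differences gave 1998 with the same direction and the same side of the threshold, 53 that lost a call, 63 that gained one and 64 of the opposite sign. The causes were not tested. For LPS/HI against Sham the 6 calls became 2 with a fold change above 2 and 2 to 8 with 1 library left out, and lay between 4 (robust variances) and 9 (19 residual degrees of freedom, array weights and the Wilcoxon test over 6 pairs) under the other settings. S100a8 and Anxa1 were lost in the Wilcoxon test adjusted over all genes, S100a8 and S100a6 with robust variances and S100a6 with no trend, while S100a4 was gained in 8 and S100a11 in 6 of 12 settings. For LPS against Sham the 1 call became 0 with that fold and with the replicate block, 2 with 19 residual degrees of freedom, the library block, array weights and both Wilcoxon tests, and 0 to 2 with 1 library left out. NaCl/HI against Sham went from 0 to 1 with array weights and with the Wilcoxon test adjusted over 6 pairs, and to between 0 and 4 with 1 library left out, the 4 coming without NaCl/HI replicate 4. LPS/HI against LPS went from 1 to 0 with that fold and with the Wilcoxon test adjusted over all genes, to 2 with 19 degrees of freedom, the library block or the lowest genes left out, to 3 with array weights and the Wilcoxon test over 6 pairs, and to between 0 and 2 with 1 library left out. There the count was 0 without LPS replicate 2 or 4 and 2 without NaCl/HI replicate 3 or 4 or LPS/HI replicate 6. LPS/HI against NaCl/HI went from 0 to 4 with array weights and to 3 with the Wilcoxon test over 6 pairs. LPS against NaCl/HI went from 0 to 1 with 19 degrees of freedom, the library block and the Wilcoxon test over 6 pairs, and to between 0 and 1 with 1 library left out, the 1 coming without NaCl/HI replicate 4 (Anxa2) or replicate 6 (S100a10). The interaction went from 0 to 2 with array weights. The array weights fit, which served all comparisons, stopped before it converged.

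Signs turned only for small differences that were not called. S100a9 in LPS against Sham was -0.027 with the replicate block, -0.0034 with the library block, -0.015 with quantile normalization and -0.010 with array weights. With array weights, S100a8 was -0.056 in NaCl/HI against Sham, S100a4 -0.15 in LPS/HI against LPS, and, in LPS/HI against NaCl/HI, S100a11 was -0.11, S100a4 -0.14, S100a6 -0.22, S100a10 -0.084 and Anxa2 -0.035. S100a10 was -0.0067 there with median centring and -0.016 with quantile normalization. S100a4 in LPS against NaCl/HI was 0.0032 with median centring and 0.0073 with array weights. S100a1 in LPS/HI against LPS was 0.0021 with the replicate block, and the S100a11 interaction was 0.020 with it and 0.030 with the library block.

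With 1 library left out, the LPS against Sham difference ran from -0.087 to 0.13 for S100a9 and from -0.016 to 0.17 for S100a11. NaCl/HI against Sham ran from -0.16 to 0.22 for S100a8 and from -0.019 to 0.31 for S100a9. LPS/HI against LPS ran from -0.0036 to 0.10 for S100a4 and from -0.040 to 0.0062 for S100a1. LPS/HI against NaCl/HI ran from -0.057 to 0.20 for S100a11, -0.091 to 0.17 for S100a4, -0.14 to 0.24 for S100a6, -0.045 to 0.10 for S100a10 and -0.038 to 0.14 for Anxa2. LPS against NaCl/HI ran from -0.28 to 0.050 for S100a9 and from -0.14 to 0.13 for S100a4. The interaction ran from -0.13 to 0.13 for S100a11, -0.14 to 0.033 for S100a10 and -0.17 to 0.011 for Anxa2. The correlation of S100a10 with Anxa2 was 0.39 within libraries 13 to 23. No other of the 5 correlations lost its call in either series or with 1 library left out.

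Replicate numbers are only names in the labels. Among 33 pairs of same-numbered samples of different groups, deviations correlated above 0.1 in 9, with r from -0.475 to 0.47 and a mean of 0.00606 against -0.000254 for other pairs. The replicate block took the LPS against Sham count from 1 to 0. Depth is unknown, and the rlog values understate differences of weakly expressed genes.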
